A study of Homo sapiens with 18 samples.

Results

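H3K4me1 peaks at promoters were examined in ZR751 cells as merged regions close to the starts of protein-coding transcripts. The 20000 top peaks by signal of each of 4 H3K4me1 lists were merged at an overlap of 1 bp or more into 43707 regions. Of these, 1491 (3.41%) had a midpoint within 1 kb of the start of a protein-coding transcript on GRCh37 (hg19), and these are called promoter regions here. The regions were chosen by the rank of a peak in its own list and by its distance to a start, so the presence and rank of peaks at them are a description and were not tested. Values given in fours follow the order ZR751shLucif replicate 1, ZR751shLucif replicate 2, ZR751shMLL3 replicate 1, ZR751shMLL3 replicate 2.

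ZR751 is an established, estrogen receptor positive (ER+) breast cancer cell line of luminal type. ZR751shMLL3 cells were stably transduced with a lentiviral short hairpin RNA against MLL3 (gene symbol KMT2C), and ZR751shLucif control cells with a hairpin against luciferase. Both lines were sorted for the GFP that the vector carries and used at early passages, so each line is a single hairpin in a transduced pool. H3K4me1, ERα and SP1 were measured by ChIP-seq and RNA by RNA-seq, each in 2 biological replicates of each cell line. The ZR751shLucif peaks were called against 1 input library and the ZR751shMLL3 peaks against another, so the cell line and the input cannot be told apart.

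MLL3 is a methyltransferase that adds a single methyl group to lysine 4 of histone H3. H3K4me1 is best known as a mark of enhancers, where transcription factors such as ERα bind. At the promoter of an active gene the nucleosomes next to the start typically carry the trimethylated form, and H3K4me1 lies on the shoulders further out.

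The 201 bp around the best-ranked summit are shown for the first region of each of 3 kinds, so that the base content behind the values can be seen. ALDH3B2 was the top region among those with a peak in every library, KDM2A, among regions whose gene had an FPKM value, of those with a peak in both ZR751shLucif libraries alone, and RNF215 was next after ATP1B1, whose window lies in an untranslated exon, among those with a peak in both ZR751shMLL3 libraries alone. The windows are chr11:67442703-67442903, chr11:67006607-67006807 and chr22:30817205-30817405 on GRCh37, plus strand, and capitals mark a motif match on either strand.
ALDH3B2: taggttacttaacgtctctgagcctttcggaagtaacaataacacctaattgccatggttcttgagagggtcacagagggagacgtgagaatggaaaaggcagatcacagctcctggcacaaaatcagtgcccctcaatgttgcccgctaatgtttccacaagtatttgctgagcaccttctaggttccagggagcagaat
KDM2A: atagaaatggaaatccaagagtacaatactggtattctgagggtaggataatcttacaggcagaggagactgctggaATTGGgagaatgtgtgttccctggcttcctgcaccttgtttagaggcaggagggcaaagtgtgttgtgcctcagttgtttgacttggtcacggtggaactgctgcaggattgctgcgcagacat
RNF215: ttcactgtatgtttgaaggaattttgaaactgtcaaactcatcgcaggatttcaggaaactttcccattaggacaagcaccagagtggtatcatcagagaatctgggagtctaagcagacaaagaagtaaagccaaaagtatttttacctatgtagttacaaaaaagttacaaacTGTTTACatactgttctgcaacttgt
The ALDH3B2 window held none of the 8 motifs searched, the KDM2A window held 1 CCAAT box and the RNF215 window 1 FOXA motif. The GC content was 47.3% in the ALDH3B2 window, 48.3% in the KDM2A window and 36.3% in the RNF215 window.

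Each motif was searched on both strands in the 201 bp around the best summit of each region and, for comparison, around all 70466 protein-coding starts. The GC box GGGCGG, the letters that SP1 recognizes, was in 2.62% of the promoter regions, in 1.06% of the 42216 other merged regions and in 46.8% of the starts. The TFAP2 motif GCCNNNGGC was in 2.62%, 2.93% and 20.7%, and the ETS motif CCGGAAG in 0.604%, 0.360% and 10.2%. The AP-1, FOXA and GATA motifs were more frequent in the promoter regions than at starts. The AP-1 motif TGANTCA was in 7.18% of the promoter regions against 3.69% of the starts, the FOXA motif TGTTTAC in 4.16% against 1.59%, and the GATA motif AGATAAG in 3.02% against 1.22%. In the other merged regions these were in 7.99%, 5.91% and 3.85%. The CCAAT box was in 26.1% of the promoter regions, 28.9% of the other regions and 23.2% of the starts. The full estrogen response element (GGTCA and TGACC, 3 bases apart) was in 0 of 1491 promoter regions, in 0.0332% of the other regions and in 0.0227% of the starts. By most of these letters the promoter summits stood nearer to the other H3K4me1 regions than to starts. The motif shares were not matched for base content, which differed between the sets. The median GC content was 39.3% to 40.8% around summits at promoter regions and 59.8% within 500 bp of all protein-coding starts. Whether the motif shares differ beyond base content was not tested.

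The promoter regions were 576 to 3263 bp long, with a median of 964 bp. Most lay to the side of the start. Of the 1491 midpoints, 878 (58.9%) were upstream of the closest start, 612 downstream and 1 on it, with a median position of -280 bp. A share of 63.4% lay more than 500 bp from the start and 16.4% within 250 bp. The midpoint fell in an intron of a protein-coding gene for 899 regions (60.3%), outside protein-coding genes for 370, in an untranslated exon for 143, in a coding exon for 45 and in another exon for 34. Only 660 regions were within 1 kb of the 5′ end of a gene, and the other 831 were at the start of another protein-coding transcript, with no gene 5′ end within 1 kb of the midpoint. At the distance limit, the region of COA6 (chr1:234509944-234510950) had its midpoint at 1000 bp and was inside, and that of CENPT (chr16:67877494-67878599) at -1001 bp and was outside, and 3 members lay at exactly 1 kb. At the rank limit, the last ranks inside were 19988, 19990, 19981 and 19964, and the first ranks outside were 20003, 20006, 20152 and 20105.

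The starts closest to these regions were poorer in CpG than starts in general. A start was called CpG-rich when the 500 bp on each side held more than 50% GC and more than 0.6 of the CpG pairs expected from base content. Of the closest starts of the promoter regions, 466 of 1491 (31.3%) were CpG-rich, against 59.5% of all protein-coding starts. Their median GC content was 49.4%, against 59.8%. At the 660 regions near the 5′ end of a gene 47.0% of the closest starts were CpG-rich, against 57.7% of all gene 5′ ends, and at the other 831 regions the share was 18.8%, against 35.6% of the 22004 starts over 1 kb from every gene 5′ end. In both groups the starts next to promoter regions were below the starts of the same kind. Around the summits of the top peaks at promoter regions the median GC content was 39.3%, 39.8%, 40.3% and 40.8%. The cell lines did not overlap, and the difference of 0.995 percentage points had an exact two-sided permutation p of 0.33, the smallest that 2 against 2 libraries can give. The gaps between libraries were small for windows of 201 bp. With 50000 top peaks the lines were not fully separated (difference 0.995, exact two-sided permutation p = 0.667). The top peaks elsewhere had 36.8% or 37.3% GC. Promoter peaks were higher than these in 4 of 4 libraries, by 3.11 ± 0.746 percentage points (SD, n = 4 libraries), with an exact paired permutation p of 0.125, the smallest that 4 pairs can give.

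The summits of the top H3K4me1 peaks formed a shoulder on each side of the start. Their density is given as summits of the 20000 top peaks per kb, added over all closest starts. Within 250 bp of the start it was 218, 254, 208 and 210. From 250 to 1000 bp upstream it was 627, 549, 412 and 351. Both ZR751shMLL3 libraries were below both ZR751shLucif libraries in each zone, by little at the start and by more on the upstream shoulder.
From 250 to 1000 bp downstream the density was 317, 315, 285 and 245. Further downstream, from 1000 to 2500 bp, it was 492, 447, 453 and 466, so the cell lines overlapped on that side. From 1000 to 2500 bp upstream it was 335, 322, 258 and 293. Both shoulders were seen at expressed genes. The densities were not divided by the number of starts in each expression class, so between the classes only their shapes can be compared. Where the closest gene had a mean above 1 FPKM (RNA-seq fragments scaled to transcript length and library size), the densities were 533, 475, 344 and 299 upstream at 250 to 1000 bp and 154, 190, 110 and 152 at the start. Where the gene was at 1 FPKM or less, they were 80.0, 52.0, 61.3 and 46.7 upstream and 56.0, 58.0, 86.0 and 52.0 at the start, so that no dip at the start was seen in 3 of the 4 libraries. From 1000 to 2500 bp downstream the densities were 445, 393, 401 and 409 for genes above 1 FPKM. For genes at 1 FPKM or less they were 34.0, 38.7, 38.7 and 42.7 there.

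**Figure D1:**
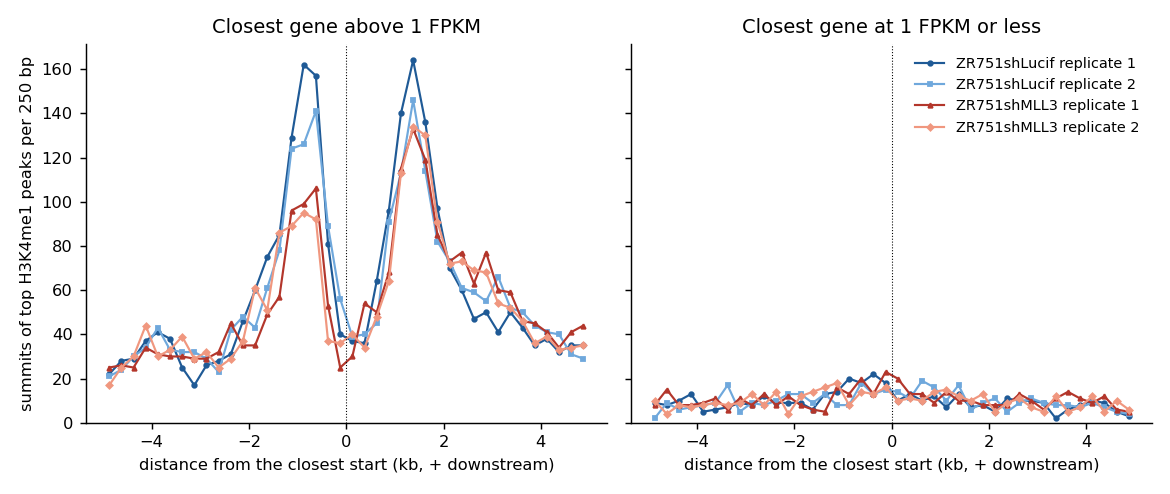
Number of summits of the 20000 top H3K4me1 peaks of each library per 250 bp (y axis) by distance from the closest protein-coding start in kb (x axis, positive downstream), for closest genes above 1 FPKM (left) and at 1 FPKM or less (right). Each line is a library; in the left panel both ZR751shLucif lines lie above both ZR751shMLL3 lines on the upstream shoulder, and the 4 lines run together beyond 1 kb downstream.

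Promoters took a small part of the top peaks in every library. Of the 20000 top peaks, 802 (4.01%, 95% Wilson interval 3.75 to 4.29) lay at a promoter region in ZR751shLucif replicate 1 and 766 (3.83%, 3.57 to 4.10) in replicate 2. In ZR751shMLL3 replicate 1 it was 637 (3.19%, 2.95 to 3.44) and in replicate 2 it was 540 (2.70%, 2.48 to 2.93). Both ZR751shLucif values were above both ZR751shMLL3 values. The intervals cover counting error only, and the depth behind single peaks is unknown. The median peak width was 964, 900, 576 and 840 bp, so wider peaks had more chance to overlap. By the summit alone, which does not depend on width, 4.09%, 3.88%, 3.14% and 2.76% of the top peaks lay within 1 kb of a start. The windows within 1 kb of a start took up 2.13% of the sequenced bases.

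Most promoter regions had a top peak in a single library. A top peak was present at 612, 569, 566 and 429 regions. A total of 1020 regions (68.4%) had it in 1 library only, near the 69.0% of the other merged regions. All 4 libraries had it at 51 regions (3.42%, against 3.17% of the other regions) and 3 libraries at 112. Both ZR751shLucif libraries and no ZR751shMLL3 library had it at 102 regions (6.84%, against 4.65% elsewhere). Both ZR751shMLL3 libraries and no ZR751shLucif library had it at 34 (2.28%, against 3.70% elsewhere). The remaining 172 had it in 1 library of each line. In all, 228 regions (15.3%) were shared by the ZR751shLucif libraries, against 12.5% of the other merged regions, and 122 (8.18%) by the ZR751shMLL3 libraries, against 9.97%. The ZR751shLucif share was thus the higher one away from promoters too.

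**Figure D2:**
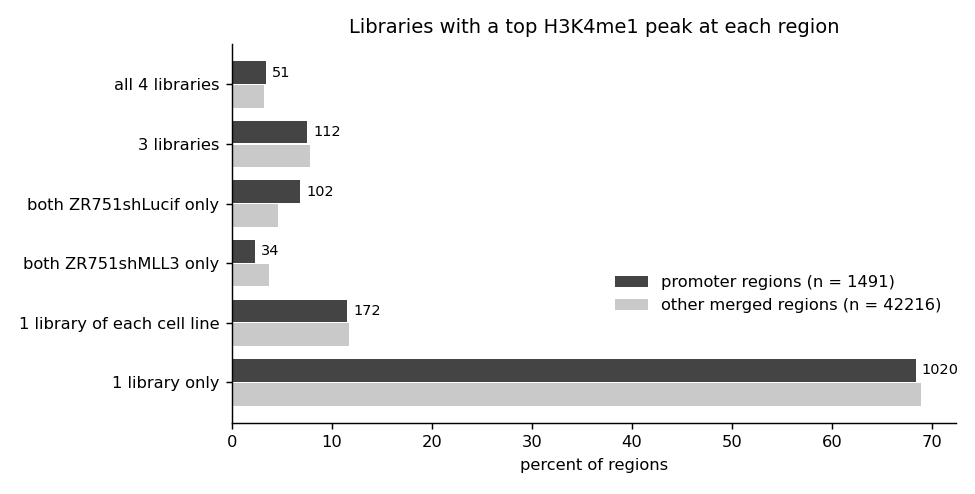
Percent of regions (x axis) by the libraries that had a top H3K4me1 peak there (y axis), for the 1491 promoter regions (dark bars, with their number) and the 42216 other merged regions (light bars). Promoter regions exceed the other regions in the class of both ZR751shLucif libraries only, with 6.84% against 4.65%, and fall below them in the class of both ZR751shMLL3 libraries only, with 2.28% against 3.70%.

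The full lists held 299979 to 300000 peaks each and were limited by rank. A listed peak of any rank overlapped 92.7%, 87.7%, 81.2% and 79.1% of the promoter regions, those with a top peak included. Of the regions without a top peak in a library, 87.6%, 80.2%, 69.6% and 70.7% had a listed peak of lower rank. These lower peaks had median ranks of 76939, 75742, 82076 and 89463. All top peaks at promoter regions passed a false discovery rate of 0.01 in their list. Over the full lists 141158, 192201, 28599 and 109586 peaks passed it, so a listed peak of lower rank need not have passed.
The ZR751shMLL3 replicates shared fewer promoter peaks with each other than with the control. Of the promoter peaks of ZR751shLucif replicate 1, 41.5% were matched by a top peak of replicate 2, and in the other direction 43.9%. Of those of ZR751shMLL3 replicate 1, 22.0% were matched in replicate 2, against 30.6% and 26.8% in ZR751shLucif replicates 1 and 2. Of those of ZR751shMLL3 replicate 2, 30.7% were matched in replicate 1, against 39.6% and 34.3% in the control libraries. The top peaks elsewhere also shared less within ZR751shMLL3 than within ZR751shLucif. Of these, 41.0% and 40.9% were matched between the ZR751shLucif replicates. Of those of ZR751shMLL3 replicate 1, 24.4% were matched in replicate 2, against 26.7% and 22.9% in the control libraries, and of those of replicate 2, 28.0% were matched in replicate 1, against 32.0% and 28.2%. Low sharing within ZR751shMLL3 was therefore not particular to promoters. A cell-line pattern at a single promoter region rests on these lists.

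The regions with a top peak in all 4 libraries were led by ALDH3B2, which encodes an aldehyde dehydrogenase (chr11:67442321-67443627, in an intron, midpoint at -663 bp, where minus is upstream). Its ranks were 2, 166, 2 and 146. The gene was at 180, 166, 135 and 257 FPKM, so the cell lines overlapped.
SNX10, a sorting nexin of endosomes, had ranks 4, 3269, 80 and 179 (chr7:26403738-26405149, 498 bp downstream, in an exon). Its level was 23.9, 16.1, 16.1 and 13.3 FPKM. The region of C1S, a protease of the complement system, had ranks 119, 348, 17 and 1025 (chr12:7095307-7096485).
That gene was barely expressed, at 1.53, 0.487, 0.535 and 1.14 FPKM, although its region ranked high in every library. PIK3C2G, a class II phosphoinositide 3-kinase, was also low, at 0.989, 1.33, 0.146 and 0.562 FPKM, with ranks 82, 1132, 146 and 1450 (chr12:18412338-18414570). LRRC23, a leucine-rich repeat protein, had ranks 238, 1366, 117 and 2067 (chr12:7012671-7014066) and 28.2, 19.7, 20.5 and 17.8 FPKM.
A high H3K4me1 rank at a promoter thus went with FPKM values from below 1 to above 100 among these 5 genes. All 5 starts were outside the CpG-rich class.

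Of the regions with a top peak in both ZR751shLucif libraries alone, KDM2A, which encodes a histone H3 lysine 36 demethylase, ranked first where the gene had an FPKM value (chr11:67005785-67007363, in an intron, at -944 bp from an internal start). Its ranks were 857 and 7 in ZR751shLucif, and no peak of any rank was listed there in ZR751shMLL3. The region of AL590452.1, a gene with no FPKM value (chr1:144987018-144990280), ranked higher, at 10 and 489 in ZR751shLucif, and it too had no listed peak in ZR751shMLL3. The KDM2A region held SP1 peaks of rank 340 and 45 in the ZR751shLucif SP1 lists and no top SP1 peak in the ZR751shMLL3 SP1 lists. The gene itself was at 89.2, 67.9, 95.5 and 102 FPKM, higher in both ZR751shMLL3 libraries than in either control library, and limma gave a log2 fold change of 0.34 (SE 0.28, adjusted p = 0.702).
TOR1AIP1, a protein of the inner nuclear membrane, had ranks 445 and 966 in ZR751shLucif and 127729 and 62105 in ZR751shMLL3 (chr1:179849911-179851214, outside protein-coding genes). Its level was 22.1, 25.5, 20.9 and 23.4 FPKM, which overlapped between the lines. PPP2R3A, a regulatory subunit of protein phosphatase 2A, had ranks 943, 841, 47139 and 20889 (chr3:135739952-135741915), the last of them just below the limit of 20000.
PPP2R3A was at 5.29, 3.04, 1.68 and 2.53 FPKM, lower in both ZR751shMLL3 libraries, with a log2 fold change of -0.82 (SE 0.35, limma, adjusted p = 0.620). CTNNA3, an alpha-catenin, had ranks 1218, 573, 23626 and 63940 (chr10:69425195-69426519) and lay below 0.5 FPKM in every library.

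Of the regions with a top peak in both ZR751shMLL3 libraries alone, ATP1B1, the beta subunit of the sodium-potassium pump, ranked first (chr1:169079397-169080899, in an untranslated exon, 43 bp downstream of the start). Its ranks were 36167 and 57601 in ZR751shLucif and 927 and 2015 in ZR751shMLL3. It was at 93.3, 135, 134 and 156 FPKM, so the lines overlapped.
RNF215, a RING finger protein, had ranks 49171, 171691, 56 and 4291 (chr22:30816468-30817592, in an intron). Its level was 7.82, 7.13, 13.4 and 12.9 FPKM, with a log2 fold change of 0.78 (SE 0.26, limma, adjusted p = 0.595). Both ZR751shMLL3 libraries were higher, and the difference did not pass the test.
SMARCE1, a subunit of the BAF chromatin remodeller, had ranks 69168, 197481, 4459 and 835 (chr17:38800991-38802229) and 74.8, 41.4, 35.3 and 42.6 FPKM. CD34, a surface protein of blood progenitors and endothelium, had ranks 97943, 178134, 4164 and 1278 (chr1:208063306-208064454) and lay below 0.1 FPKM in every library. No H3K4me1 peak was missing from a control list at these 4 regions, in contrast to KDM2A, where the ZR751shMLL3 lists held none.

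**Figure D3:**
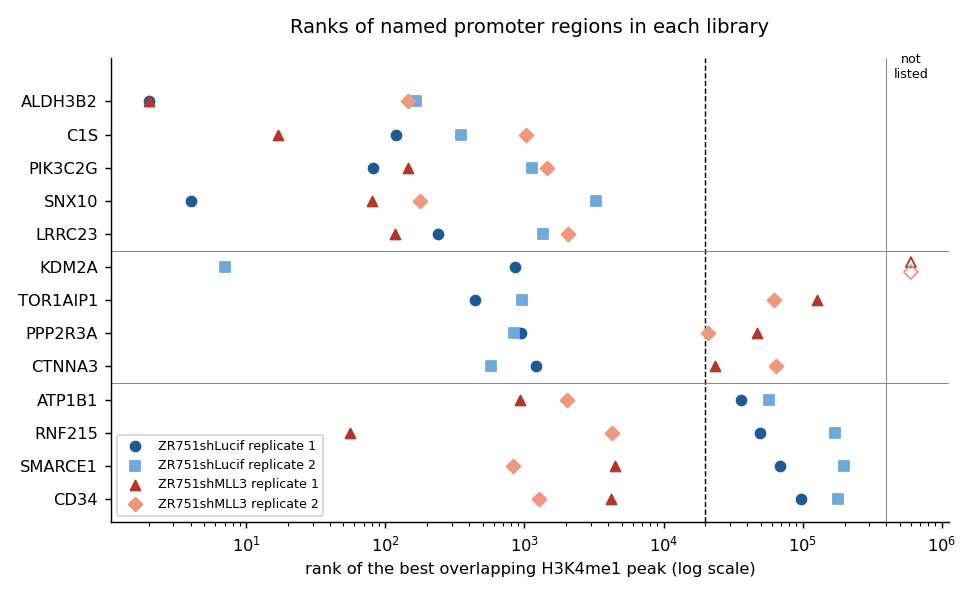
Rank of the best overlapping H3K4me1 peak in each library (x axis, log scale, 1 is the highest signal) for the 13 regions named by rank (y axis), in 3 blocks with a top peak in all 4 libraries, in both ZR751shLucif libraries only and in both ZR751shMLL3 libraries only. The dashed line is rank 20000, and open symbols at the right edge are libraries with no listed peak, which among these 13 occur at KDM2A alone, in both ZR751shMLL3 libraries.

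The genes next to the promoter regions were expressed above the level of protein-coding genes as a whole. The 1491 regions had 1303 closest genes (6.63% of 19659), of which 1267 were in the FPKM table. Their median level was 11.1, 10.7, 8.93 and 10.2 FPKM. Over all 18172 protein-coding genes with a value the medians were 3.62, 3.46, 3.29 and 3.58 FPKM. The share of genes above 1 FPKM was 80.6% to 82.2% next to promoter regions and 60.4% to 61.0% over all. Genes are not replicates, so no test was made over them.
The level went with the position of the region. Where the midpoint was within 250 bp of the start, the median of the 237 genes was 7.34, 6.54, 5.17 and 6.02 FPKM, and where it was beyond 500 bp, that of 846 genes was 13.7, 12.7, 11.1 and 12.1 FPKM. Next to CpG-rich starts the median was 16.4, 14.8, 12.5 and 13.4 FPKM, and next to the other starts 8.95, 8.86, 7.07 and 8.57 FPKM.
Genes whose region had a top peak in all 4 libraries had medians of 15.7, 16.1, 12.3 and 13.3 FPKM. Those of regions in both ZR751shMLL3 libraries alone had medians of 7.78, 6.89, 7.03 and 8.87 FPKM over 34 genes, lower than those of all 4 libraries in every RNA library.

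**Figure D4:**
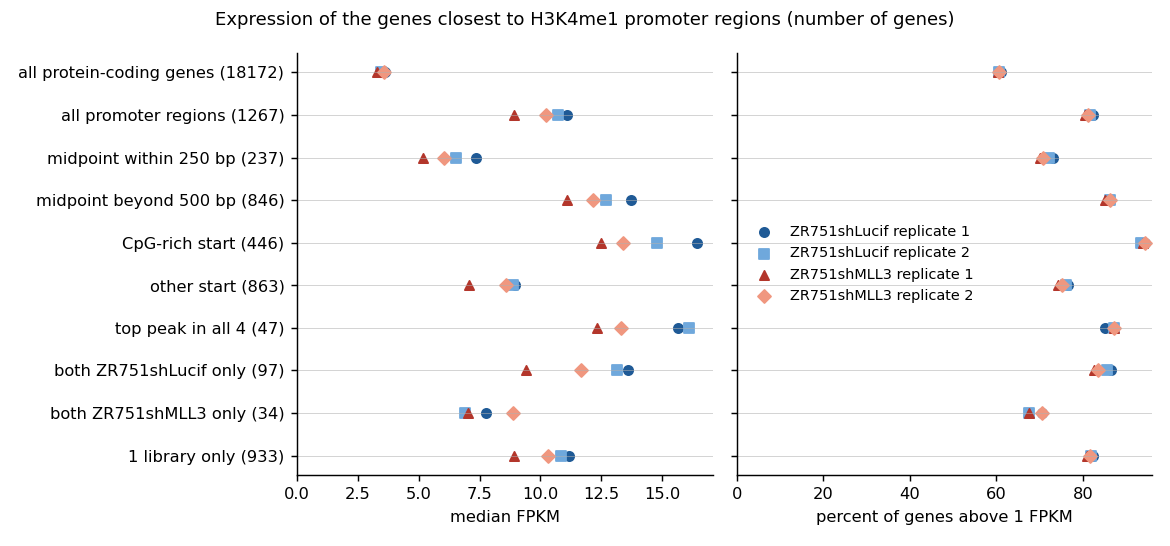
Median FPKM (left) and percent of genes above 1 FPKM (right) of all protein-coding genes and of the genes closest to promoter regions, by distance, CpG content of the start and presence class (y axis, with the number of genes); each point is an RNA library. Genes next to promoter regions lie between 8.93 and 11.1 FPKM, above all protein-coding genes at 3.29 to 3.62.

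KMT2C, the targeted gene, had no promoter region. It was at 2.34, 6.77, 1.07 and 2.69 FPKM, so the lines overlapped, with a log2 fold change of -1.02 (SE 0.54, limma, adjusted p = 0.629). Without ZR751shLucif replicates 1 and 2 in turn it was -1.70 and -0.35, and without ZR751shMLL3 replicates 1 and 2 in turn -0.51 and -1.54. The paper reports the knockdown of MLL3 by qPCR, a measure that is not among the values used here. The cells expressed luminal markers, with ESR1 at 10.8 to 14.2 FPKM and KRT8 at 1652 to 4573 FPKM. Of 10 basal or myoepithelial markers, KRT6A was at 0 in every library, KRT5, KRT14, KRT17 and TP63 were below 0.2 FPKM and CDH3 was at 35.1 to 41.6 FPKM, and the list summed to 43.2 to 49.5 FPKM. Of 10 markers of leukocytes, fibroblasts and endothelium, CD68 was at 7.66 to 13.9 FPKM and COL1A1 at 13.1 to 17.8 FPKM, and the other 8 were below 0.2 FPKM.

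RNA was compared between the cell lines with limma on log2(FPKM + 0.5) over all 11134 genes with a mean above 1 on this scale. Positive values are higher in ZR751shMLL3. Fold changes on this scale understate those of low genes, and in these bulk libraries fewer cells with a transcript and less RNA per cell cannot be told apart. Of the 996 tested genes next to promoter regions, 0 passed an adjusted p of 0.05, the smallest being 0.231, beside 0% of all tested genes called higher and 0.00898% called lower. At an unadjusted p of 0.05, 29 were higher (2.91%) and 70 were lower (7.03%), beside 3.67% and 4.31% of all tested genes. The median log2 fold change was -0.18 next to promoter regions and -0.10 over all tested genes. These values depended on single libraries. Without ZR751shLucif replicate 1 the medians were -0.07 next to promoter regions and 0.02 over all tested genes, so the sign over all genes turned. Without ZR751shLucif replicate 2 they were -0.25 and -0.19, without ZR751shMLL3 replicate 1 they were -0.11 and -0.06, and without ZR751shMLL3 replicate 2 they were -0.22 and -0.13. With ZR751shLucif replicate 2 left out, genes next to promoter regions passed the adjusted p, and genes elsewhere did so in no smaller share. The counts of higher and lower genes at an unadjusted p moved as the libraries were left out in the order above. Those over all tested genes moved too. With those libraries left out, the share of lower genes was 11.2%, 25.7%, 1.91% and 2.51% next to promoter regions and 6.94%, 24.3%, 0.925% and 1.29% over all.

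The genes whose region had a top peak in both ZR751shLucif libraries alone had the highest share with lower RNA in ZR751shMLL3 of the 6 presence classes. Of 79 tested, 13 (16.5%) were lower and 0 were higher at an unadjusted p of 0.05, beside the 4.31% and 3.67% above, and their median log2 fold change was -0.24, beside -0.26 for the regions in 3 libraries. None passed the adjusted p. Without ZR751shLucif replicates 1 and 2 in turn the 13 became 17 and 31, and without ZR751shMLL3 replicates 1 and 2 in turn they became 2 and 6. The regions in both ZR751shMLL3 libraries alone had 1 gene higher and 1 lower of 22 tested, with a median of -0.10, the same as over all genes. Those in all 4 libraries had 1 higher and 5 lower of 39, with a median of -0.10. The RNA came from other libraries than the peaks and was not used to choose the regions.
The 13 genes were read out after their values were seen. CLGN, which encodes a chaperone of the endoplasmic reticulum, was at 32.9, 46.5, 8.28 and 7.14 FPKM. Its region at -703 bp (chr4:141349037-141350000) had ranks 11349 and 4786 in ZR751shLucif and 27441 in ZR751shMLL3 replicate 1, with no listed peak in replicate 2. The log2 fold change was -2.27 (SE 0.30, limma, adjusted p = 0.231).
MARK1, a kinase of microtubule-associated proteins, was at 22.4, 14.9, 4.76 and 5.74 FPKM. Its ranks were 5641, 1659, 40817 and 214933. LGALS8, a galectin, was at 57.3, 51.8, 23.6 and 30.1 FPKM, with ranks 1369, 2502, 39993 and 29143.
These genes, chosen by their p in the same RNA libraries, did not overlap between the lines. XPOT, the export receptor for transfer RNA, was at 191, 158, 93.7 and 97.1 FPKM, with ranks 8165 and 14558 in ZR751shLucif and no listed peak in ZR751shMLL3. STS, the steroid sulfatase that releases active steroids from their sulfates, was at 5.86, 6.47, 4.03 and 3.41 FPKM, with ranks 5589, 516, 20483 and 83374. The others were CAPN9, RBM47, KLHL13, RAB27B, LIMA1, TSEN15, C1orf198 and EPS8, with log2 fold changes from -1.22 to -0.69. Of the 13 regions, 11 lay upstream of the start, and the other 2 were LIMA1 at 772 bp and C1orf198 at 34 bp downstream. Upstream positions were also the more common ones over all promoter regions (58.9%), and the median position in this presence class was -471.5 bp.

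Ranked by the RNA test alone, the genes with the smallest p next to promoter regions were of mixed presence. EMP1, an epithelial membrane protein, was at 4.47, 4.71, 0.753 and 0.597 FPKM, with a log2 fold change of -2.12 (SE 0.26, limma, adjusted p = 0.231). Its region had ranks 17296, 23138, 6893 and 154379 (chr12:13364382-13365423, in an intron), so its peak was among the top in 1 library of each line.
EDARADD, an adaptor of the ectodysplasin receptor, was at 3.12, 3.17, 0.704 and 0.768 FPKM, and its region (chr1:236557210-236558350) had ranks 34327 and 13945 in ZR751shLucif with no listed peak in ZR751shMLL3. Among the higher genes, WIPF1, which binds the actin regulator WASP, was at 0.506, 0.613, 5.04 and 2.30 FPKM. Its region (chr2:175450580-175451155) had ranks 192460, 229953, 7683 and 216711.
NELL2, a secreted neuronal protein, was at 5.86, 10.7, 40.5 and 25.4 FPKM, with ranks 4203, 171068, 6522 and 50249 (chr12:45314039-45315406). KCNK2, a potassium channel, was at 3.22, 2.28, 6.12 and 12.1 FPKM, with ranks 44023, 31928, 207281 and 18650 (chr1:215179339-215180178). The cell lines did not overlap in the RNA of these genes, which were chosen by the smallest p in the same libraries. The smallest adjusted p of the higher ones was 0.402. None of the 3 higher genes had a top peak in both ZR751shMLL3 libraries, beside 8.18% of all promoter regions. With so low a share, 3 genes cannot show a difference.

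The share of genes with a promoter region was read in gene lists for this tissue, beside the 6.63% of all protein-coding genes. It was 22.7% for keratin and junction genes, 17.9% for estrogen-induced genes and 13.6% for luminal factors. Basal markers had 10.0%, immediate early genes 8.70% and cell cycle genes 7.41%. Each list held 10 to 32 genes, too few for a count of 0 to stand apart from 6.63%, and no test was made. Lists of enzymes and complex subunits that write or erase H3K4 methylation (25 genes), ribosomal proteins (25) and developmental transcription factors (32) had 0 each. None of the 10 markers of leukocytes, fibroblasts and endothelium had one. The ribosomal genes were the most highly expressed list, with a median of 1178 to 1662 FPKM, and the developmental factors were near 0, at 0.0736 to 0.128 FPKM.
Of the 22 transcription factors of luminal epithelium, 3 had a region. SPDEF, a luminal ETS factor, had ranks 18262 and 2474 in ZR751shLucif, none listed in ZR751shMLL3 replicate 1 and 240283 in replicate 2 (chr6:34523992-34525137). It was at 463, 253, 301 and 405 FPKM, so its RNA overlapped between the lines. ZNF217, a zinc finger factor, had a top peak in ZR751shLucif replicate 1 alone, and EHF, another ETS factor, in ZR751shMLL3 replicate 1 alone.
Of the 28 classical estrogen-induced genes, 5 had a region: BCL2, FKBP4, NHERF1, PDZK1 and RARA. NHERF1, a scaffold protein of the apical membrane, had ranks 10842, 16647, 32491 and 187706 (chr17:72756963-72758238, at -542 bp from an internal start) and held a top ERα peak in every library, of rank 63, 125, 362 and 8694. It was at 1612, 496, 830 and 767 FPKM. PDZK1, another scaffold protein, was at 13.1, 5.10, 1.59 and 2.18 FPKM, with a log2 fold change of -1.88 (SE 0.45, limma, adjusted p = 0.475). It had a pair of regions, each with a top peak in ZR751shMLL3 replicate 1 alone and a top ERα peak in ZR751shLucif replicate 2 alone. These ranked 5921 for H3K4me1 and 153 for ERα at chr1:145726862-145727437, and 1072 and 2159 at chr1:145743312-145744138. BCL2, which blocks cell death, was at 7.56, 12.4, 10.3 and 10.0 FPKM, with ranks 58130, 14967, 11189 and 119178 (chr18:60828354-60829477).
Of the 22 keratin and junction genes of simple epithelium, 5 had a region: CLDN4, EPCAM, KRT7, KRT8 and OCLN. KRT7, a keratin of simple epithelium, was at 20.5, 11.8, 4.89 and 5.22 FPKM, and its region had a top peak in ZR751shMLL3 replicate 1 alone, at rank 14337 (chr12:52626137-52626712). KRT8 had ranks 9025, 100810, 22785 and 13698, and CLDN4, a claudin of tight junctions, 37153, 85832, 33421 and 4620. Of 23 immediate early genes ATF3 and IER5 had a region, of 27 cell cycle genes CCNE2 and CDK1, and of 10 basal markers TP63, whose region lay at an internal start and had ranks 13162, 8379, 123922 and 36019 while the gene was at 0.0535 to 0.0845 FPKM. No gene of these lists passed the adjusted p.

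SP1 is a transcription factor that binds GC boxes near starts. A top SP1 peak overlapped 2.95%, 2.01%, 2.21% and 14.3% of the promoter regions. The last library stood apart from the other 3, which lay close together. The difference of 5.77 percentage points (8.25 ± 8.54 against 2.48 ± 0.664, SD, n = 2) had an exact two-sided permutation p of 0.667, and without ZR751shMLL3 replicate 2 it was -0.268. That library had more SP1 peaks at starts in general, with 28.3% of windows of 964 bp at all gene 5′ ends, against 2.75%, 3.07% and 3.53% in the others. In that library the promoter regions thus held fewer SP1 peaks than gene 5′ ends and more than the other merged regions, of which 3.45% had one.
Over the 4 libraries the promoter regions exceeded the other merged regions by 3.13 ± 5.14 percentage points (SD, 4 of 4 libraries, exact paired permutation p = 0.125). ZR751shMLL3 replicate 2 carried most of this mean, with 10.8 percentage points, and without it the excess was 0.556 ± 0.231 (3 of 3 libraries). Against the windows at gene 5′ ends the difference was -4.05 ± 6.68 percentage points (higher in 1 of 4 libraries, exact paired permutation p = 0.25), and -0.725 ± 0.814 without that library. Both SP1 replicates had a peak at 3 promoter regions (0.201%) in ZR751shLucif and at 14 (0.939%) in ZR751shMLL3. The shares of gene 5′ ends were 0.898% and 3.00%, and those of the other merged regions 0.0663% and 0.135%, so all 3 sets had the higher share in ZR751shMLL3, to which the library that stood apart belongs. At the 51 regions with an H3K4me1 peak in all 4 libraries, SP1 peaks were at 3, 4, 2 and 22.

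ERα is the estrogen receptor that drives this tumor type and binds mostly at enhancers. A top ERα peak overlapped 2.21%, 4.90%, 2.75% and 1.41% of the promoter regions. The lines overlapped, and the difference of -1.48 percentage points (2.08 ± 0.949 against 3.55 ± 1.90, SD, n = 2) had an exact two-sided permutation p of 0.667. The ZR751shLucif replicates differed from each other by more than the lines did. The difference was -2.82 without ZR751shLucif replicate 1, -0.134 without ZR751shLucif replicate 2, -2.15 without ZR751shMLL3 replicate 1 and -0.805 without ZR751shMLL3 replicate 2. In each library the promoter regions exceeded the windows at gene 5′ ends, of which 0.713%, 1.21%, 0.748% and 0.464% had a peak, by 2.03 ± 1.18 percentage points (SD, 4 of 4 libraries, exact paired permutation p = 0.125). Against the other merged regions, with 1.87%, 5.05%, 3.12% and 1.48%, the difference was -0.0647 ± 0.299 (higher in 1 of 4 libraries, exact paired permutation p = 0.625), and it turned to 0.0386 without ZR751shMLL3 replicate 1. Both ERα replicates had a peak at 7 promoter regions (0.469%) in ZR751shLucif and at 4 (0.268%) in ZR751shMLL3, against 0.310% and 0.265% of the other merged regions.

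**Figure D5:**
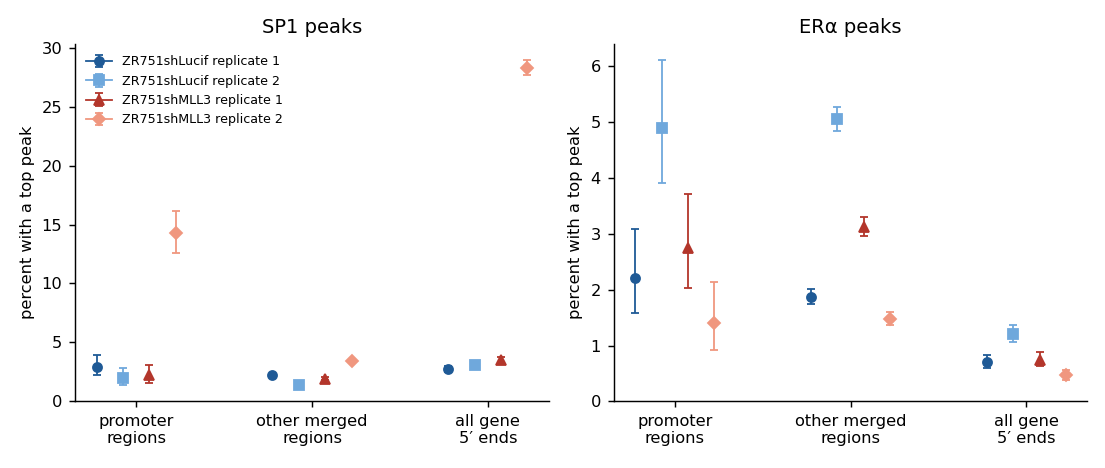
Percent of regions with a top SP1 peak (left) or ERα peak (right) in each library, for promoter regions, other merged regions and windows of 964 bp at all gene 5′ ends (x axis); bars are 95% Wilson intervals, which cover counting error only. ZR751shMLL3 replicate 2 stands apart for SP1, at 14.3% of promoter regions and 28.3% of gene 5′ ends, and for ERα the promoter regions lie at the level of the other merged regions.

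The promoter regions were spread unevenly over the chromosomes. Chromosome 1 held 300 (20.1%), against 9.12% of all protein-coding starts and 13.4% of the other merged regions, and chromosome 12 held 165 (11.1%), against 5.79% and 7.80%. Chromosome 19, which carries 7.13% of the starts, held 23 (1.54%), against 0.412% of the other regions. On chromosome 1 a top peak was at 159 and 131 regions in ZR751shLucif and at 115 and 85 in ZR751shMLL3, and on chromosome 12 at 89, 73, 66 and 58. On both chromosomes the ZR751shLucif libraries had the higher counts, as they had over all promoter regions (612, 569, 566 and 429).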

How the data were processed

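H3K4me1, SP1 and ERα were measured by ChIP-seq and RNA by RNA-seq, in 2 biological replicates each of ZR751shLucif and ZR751shMLL3 cells, grouped by the sample labels. Per the labels and methods, the authors aligned ChIP reads to hg19 with BWA 0.7.5a-r405, removed duplicates with Picard 1.126 and called peaks with SPP in each library against 1 input per cell line. The deposited lists hold the SPP signal of each peak, on a scale of its own in each list, and the −log10 of its false discovery rate. The deposited RNA values are FPKM by TopHat2 2.0.13, Cufflinks 2.2.1 and Cuffnorm 2.2.1. Reads per gene or peak are not in these files, so depth is unknown.

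Starts were those of protein-coding transcripts in GENCODE 44 on GRCh37, without transcripts whose start is annotated as incomplete. Peaks were ranked by signal within a list, and a top peak is 1 of the first 20000. Presence means an overlap of at least 1 bp. The closest start gave the gene. Windows at gene 5′ ends were 964 bp, the median region width, in place of the 2 kb first planned. RefSeq accessions were paired with symbols through a GRCh38 gene table, used for names only. RNA was tested with limma 3.58.1 in R 4.3.3 on log2(FPKM + 0.5), Benjamini-Hochberg over all genes with a mean above 1, at an adjusted p of 0.05, without surrogate variable removal. Shares were compared over libraries with exact two-sided permutation tests in SciPy 1.17.1. The steps were tested on simulated data. The members, gene lists and alternatives were chosen with earlier results of these data known.

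Named regions were the 5, 4 and 4 with the lowest mean rank in all 4 libraries, in both ZR751shLucif only and in both ZR751shMLL3 only, where the gene had FPKM; the 3 genes each way with the smallest p; up to 3 per gene list; KMT2C; and regions at the limits. Input libraries were not analysed here.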

Additional observations from a re-analysis of the deposited data

How the results depend on the processing

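Alternatives that change how many peaks or starts qualify moved the counts. Promoter regions numbered 792 with 10000 top peaks, 3192 with 50000, 546 within 500 bp, 3402 within 2 kb and 722 with 1 start per gene, the outermost of its transcripts of any type. In the same order, regions in both ZR751shLucif libraries numbered 108, 611, 74, 490 and 130, and regions in both ZR751shMLL3 libraries 54, 371, 43, 336 and 58. Under each of these 5 settings the ZR751shLucif count stayed above the ZR751shMLL3 count. The share of top peaks at promoters, ZR751shMLL3 minus ZR751shLucif, went from -0.9775 percentage points to -0.2275 within 500 bp, -1.52 within 2 kb and -0.5975 with 1 start per gene. The median level of the closest genes was 11.8 FPKM with 10000 top peaks, 8.90 with 50000, 7.07 within 500 bp and 11.9 within 2 kb, beside 10.6. The SP1 difference ran from -0.268 to 11.8 percentage points when SP1 libraries were left out in turn, and reversed only without ZR751shMLL3 replicate 2. The ERα difference kept its direction and ran from -2.82 to -0.134 when ERα libraries were left out, and was -3.29 with 50000 top ERα peaks and -0.704 with 5000, beside -1.48. The share of CpG-rich starts was 29.0% with 10000 top peaks, 34.6% with 50000 and 45.6% with 1 start per gene, the last chosen after seeing the data. Apart from the median over all genes and the ERα contrast with other regions, named in the text, no other direction changed under the alternatives run.

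Leaving out RNA libraries in turn, the genes called next to promoter regions ran from 0 to 100, those lower at an unadjusted p of 0.05 from 19 to 256, and those of regions in both ZR751shLucif libraries alone from 2 to 31. The most called genes were found without ZR751shLucif replicate 2, where genes elsewhere passed in no smaller share, so promoter genes did not stand apart. Where a line was left with 1 library, limma takes its spread from the other line. The genes lower numbered 113 with no filter on low values and 41 with a mean log2 value over 3, where more or fewer genes were tested. The counts at an unadjusted p were chosen after seeing the data. The same-numbered RNA libraries deviated together by a correlation of only 0.0374, and 2 pairs are too few to show a pairing. With the replicate block, limma called 4 genes, MGP, CLGN, EMP1 and LRRC31, all lower in ZR751shMLL3, of 33 called over all genes. With quantile normalization the median log2 fold changes were -0.03 over all genes and -0.09 next to promoter regions, in place of -0.10 and -0.18.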
